A study of Homo sapiens with 16 samples.

Results

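The genes described here encode the microtubule cytoskeleton of a neuron-like cell: alpha, beta and gamma tubulins, the proteins that bind, stabilise or destabilise the polymer, and the enzymes and motors that act on it. They were chosen by symbol as 40 named genes of 10 roles, with no measured value in the rule. Earlier results of these data were known when they were chosen. The shares of members called, set below beside those of all genes, are therefore descriptive and not an independent test. Of the 40, 39 were found among the 19898 genes of the count table, and TUBB was not analysed here. All but 1 of these 39, that is 38 genes, had a normalised count of at least 10 in every one of the 16 libraries and entered the tests among 16984 genes. The exception was MAPT, which is described with the other structural proteins.

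The cells were SH-SY5Y, an established human neuroblastoma line, differentiated for 15 days towards dopamine-like neurons, and bulk poly(A) RNA was sequenced. Cultures grew either in flat dishes (2D) or in a silk and collagen scaffold (3D), and from day 13 on each kind was left untreated or spent 48 hours in 1 mM MPP (1-methyl-4-phenylpyridinium). MPP is a mitochondrial complex I inhibitor that catecholamine transporters carry into cells and that is used to model Parkinson's disease. There were 4 libraries in each of the 4 groups, untreated and MPP-treated, of each culture kind. All groups share 1 cell line, and the 2D cells were detached with Accutase and pelleted while the scaffolds were frozen whole, so culture geometry and collection cannot be told apart. Nothing in the labels ties the 4 libraries of a group to independently grown cultures, and the tests therefore speak only of the scatter among libraries, which may be technical.

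Microtubules are hollow polymers of alpha and beta tubulin pairs, started from rings that hold gamma tubulin. Neurons express several tubulin genes side by side and cover the polymer with structural proteins such as MAP2 in dendrites and tau in axons, while doublecortins, stathmins and collapsin response mediator proteins (CRMPs) tune its growth in young neurites. Kinesins use the finished tracks to carry vesicles along the axon.

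Recovered whole reads in genes ranged over the 4 groups from 24589435 in an untreated 3D library to 46359070 in an untreated 2D library. The groups differed in marker genes of other states, and the part of these in the members' changes was not tested. The 12 markers of proliferating cells summed to 27360 to 31730 normalised reads in 2D without MPP, 11020 to 12450 in 2D with MPP, 13370 to 14870 in 3D without MPP and 10460 to 18050 in 3D with MPP. The 12 neuron-like markers, none of them a member, summed to 114800 to 123800, 116900 to 126400, 85360 to 90490 and 67390 to 76460 in the same order. Of these 12, 2 were called higher and 7 lower in untreated 3D against 2D (limma). ELAVL4 averaged 21570 ± 1069 in untreated dishes and 4623 ± 315 in untreated scaffolds, while RBFOX3 rose from 46.1 ± 19.9 to 123 ± 34.2 (SD, n = 4). The 8 markers of Schwann cells and glia summed to 2380 to 2614, 2001 to 2249, 3246 to 4161 and 2006 to 2324, highest in untreated 3D. SOX10 was at 0.785 ± 1.57 (SD, n = 4) in untreated dishes and at 0 in all untreated scaffolds. PMP22 was at 1654 ± 110 and 2644 ± 418 (SD, n = 4) in the same groups, a rise (limma, log2 0.67, adjusted p = 1.40e-05). It was the only call among the 7 of these glial markers tested, with 1 higher and 0 lower (limma). S100B averaged 134 ± 31.2 and 144 ± 11.5 (SD, n = 4), so the higher sum does not show a shift of the whole list. The 14 genes of the mesenchymal neuroblastoma state summed to 13520 to 14690, 15770 to 17430, 12320 to 13220 and 10740 to 11700. The 13 catecholamine and dopamine neuron markers summed to 255300 to 282500, 243300 to 260500, 245300 to 281400 and 171300 to 218600. Of these, 5 were called higher and 5 lower in untreated 3D against 2D (limma), so they did not move as a set. TH, the rate-limiting enzyme of catecholamine synthesis, averaged 341 ± 25.8 in untreated dishes and 5585 ± 823 in untreated scaffolds. In the same groups DDC averaged 2745 ± 154 and 14140 ± 567, SLC18A2 975 ± 76.6 and 3129 ± 173, and SLC6A2 2682 ± 90.9 and 126 ± 27.5. NR4A2, a defining factor of midbrain dopamine neurons, was near 0 at 2.95 ± 2.64 and 7.70 ± 3.18. DBH, the noradrenaline enzyme, was 148700 ± 8378 and 115100 ± 8759 (SD, n = 4).

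In the scaffold most of these genes were lower than in the dish. Of the 38 genes tested, 4 rose, 25 fell and 9 did not pass the test in untreated 3D against untreated 2D cultures (limma, Benjamini-Hochberg adjusted p under 0.05 over all genes). That is 76.3% of the members, beside 46.1% of all genes tested and 52.4% of those whose mean was at least 500. Among all genes, 23.2% rose and 23.0% fell, while the members' median log2 change was -0.33 against 0.01 for all genes. The members with the largest decreases were DPYSL3, DCX, DCLK1 and DCLK2, each at least 2-fold lower (12.4% of all genes were called with at least this change), and the 4 that rose were TUBA4A, TUBB2B, MAP7 and DPYSL4. In bulk RNA, fewer cells that express a gene and less of its RNA per cell cannot be told apart.

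With MPP in both kinds of culture, 3 members rose, 25 fell and 10 did not pass in 3D against 2D (limma), which is 73.7% of the 38, beside 38.9% of all genes and 46.9% of those with a mean of at least 500. Of all genes 19.0% rose and 19.9% fell, and 8.08% were called with at least a 2-fold change, as were 3 members, TUBB6, MAP1B and DPYSL3. The 3 that rose were TUBA4A, TUBG1 and MAP7. These libraries are all different from the untreated ones, but both comparisons come from 1 fit of all 16 libraries. In both, 21 genes fell, which is 84.0% of the 25 in each. The matching share over all genes was not computed, so this figure cannot be called particular to the members. TUBG1 was the only member called in opposite directions, lower without MPP and higher with it.

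MPP itself moved the members in both directions. In 2D, 12 rose, 9 fell and 17 did not pass the test, or 55.3% called beside 34.5% of all genes and 41.3% of those with a mean of at least 500 (limma). In 3D, 12 rose, 8 fell and 18 did not pass, or 52.6% called beside 34.6% of all genes and 41.6% of those at this mean. At least a 2-fold change was called for no member in 2D and for MAP1B in 3D, beside 6.38% and 6.55% of all genes. The balance of directions depended on scaling: with equal library totals (every library scaled to the same sum of reads) the counts became 15 higher and 5 lower in 2D, and 15 higher and 4 lower in 3D. With equal nuclear totals (the same without the mitochondrially encoded genes) and with quantile normalisation the 3D counts were 14 and 6, and 15 and 6. In 2D these settings gave 12 and 9, as with the deposited scaling, and 14 and 8. Equal library totals moved the median log2 change of all genes from 0.02 to 0.12 in 2D. All genes shifted too: of those called, 51.11% were higher in 2D and 49.02% in 3D with the deposited scaling. With equal library totals these shares were 70.25% and 65.97%. In 3D they were 57.5% with equal nuclear totals and 53.28% with quantile normalisation, and in 2D 45.34% and 49.62%. TUBG2, MAP4, STMN2, CRMP1, TTL and KIF5A rose in both cultures, TUBB4B and DPYSL4 fell in both, TUBB2A and TUBB6 rose in 2D and fell in 3D, and TUBG1 fell in 2D and rose in 3D.

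The MPP effect differed between the cultures, by the test of the difference itself, for 12 of the 38 members or 31.6%, beside 15.3% of all genes and 18.3% of those with a mean of at least 500 (limma). Of all genes 7.00% had a more positive effect in 3D and 8.32% a more negative one, and 5.37% differed by at least 2-fold, which no member did. For 6 of them the change was more positive in 3D: TUBG1, DCX, DCLK1, DCLK2, STMN1 and DPYSL5. For the other 6 it was more negative in 3D: TUBA1A, TUBB2A, TUBB2B, TUBB3, TUBB6 and MAP1B. With equal nuclear totals the split became 8 and 5, and with quantile normalisation 9 and 6. Of all genes called for the difference, 45.7% were more positive in 3D with the deposited scaling. With equal nuclear totals 61.83% were, and with quantile normalisation 52.77%. The comparisons share libraries where they share a group, as do untreated 3D against 2D and MPP in 2D, so their calls are not independent. The heatmap of log2 changes shows the members by role over these comparisons.

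**Figure D1:**
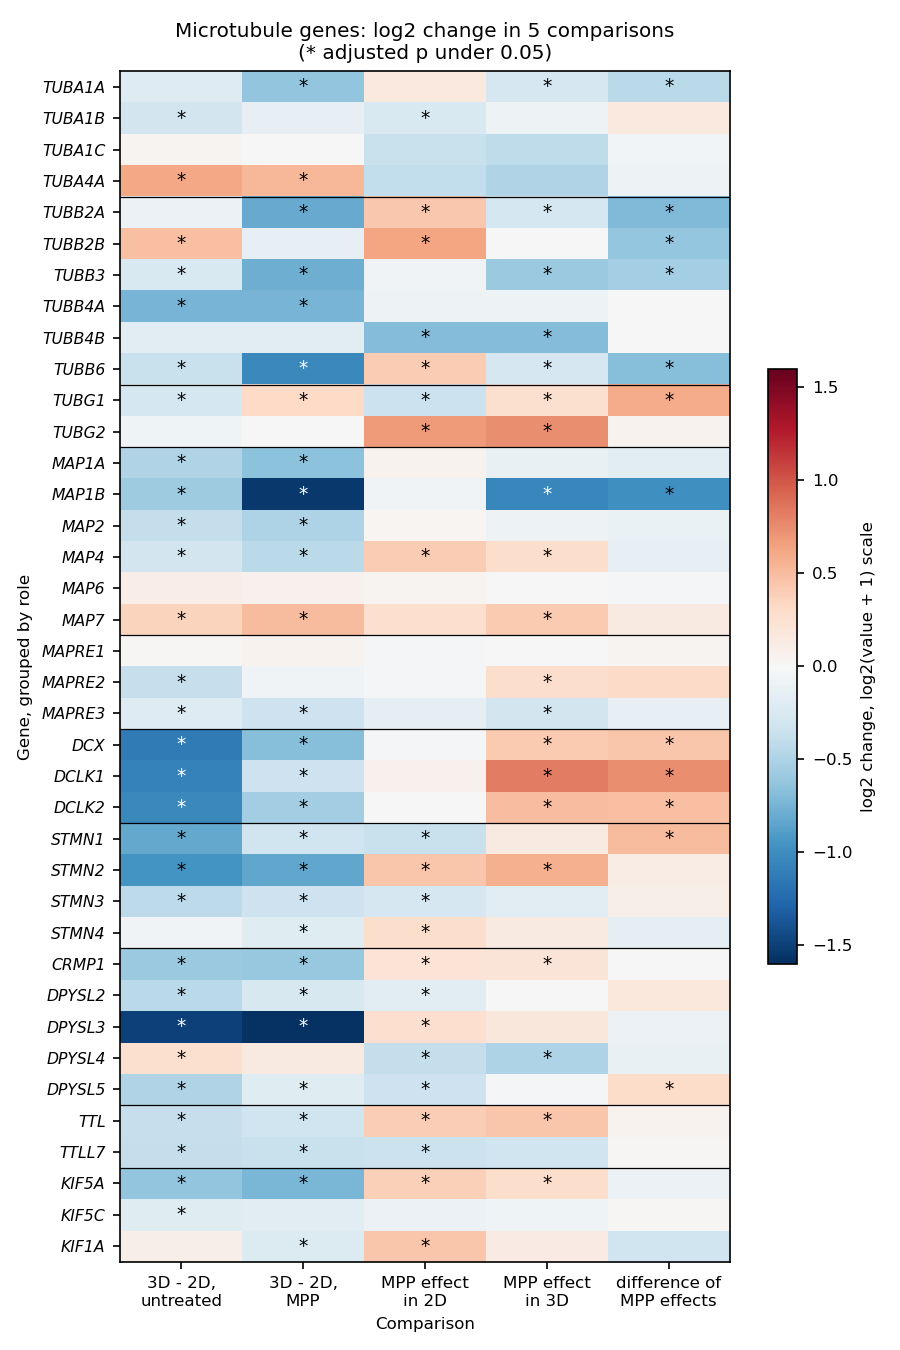
Log2 change of each member tested (rows, by role) in the comparisons of 3D with 2D, of MPP with no MPP, and in the difference between the MPP effects (columns), with limma calls marked by an asterisk. The DCX, STMN and CRMP rows are mostly negative in both 3D columns, and TUBB2A and TUBB6 turn from positive to negative between the MPP columns for 2D and 3D.

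The alpha tubulins pair with beta tubulin to form the building block of the polymer. TUBA1A, the main alpha tubulin of young neurons, had the highest level of any member per kilobase of exon, 26150 ± 955 normalised reads per kb in untreated 2D (SD, n = 4), ahead of TUBA1B at 19460 ± 1341. TUBA4A and TUBA1C were far lower, at 57.3 ± 12.9 and 17.8 ± 3.05 per kb. TUBA1A stood at 71025, 66663, 66916 and 65319 normalised reads in the untreated 2D libraries and at 51128, 57149.9, 64029.6 and 62721 in the untreated 3D libraries. With MPP, TUBA1A stood at 73188, 70922, 75867 and 81168 in 2D and at 38988, 48492, 57458 and 51152 in 3D. MPP-treated 3D had the lowest values, all below every MPP-treated 2D library, while MPP-treated and untreated 3D libraries overlapped. TUBA1A was lower in 3D than in 2D under MPP (limma, log2 -0.63, SE 0.094, adjusted p = 1.44e-05), and it fell with MPP in 3D (limma, log2 -0.27, SE 0.094, adjusted p = 0.0296), while its change in 2D did not pass the test (limma, log2 0.16, SE 0.094, adjusted p = 0.209). Where other settings or left-out libraries end a call they are named beside it. Array weights weigh libraries by their scatter, and a replicate block fits the replicate number. The limma call of the fall in 3D was lost under equal library totals, under equal nuclear totals, under quantile normalisation, under array weights, when only the groups compared were fitted, or without any 1 of untreated 3D replicates 3 and 4 and MPP-treated 3D replicates 1 and 2 (adjusted p of 0.0541 to 0.731). The MPP effect in 3D minus that in 2D was also called (limma, log2 -0.43, SE 0.13, adjusted p = 0.0325). That difference was lost under equal nuclear totals, or without any 1 of untreated 2D replicates 2, 3 and 4, untreated 3D replicates 3 and 4, MPP-treated 2D replicates 3 and 4 and MPP-treated 3D replicate 1 (adjusted p of 0.0536 to 0.0654). In untreated cultures the change was log2 -0.20 and did not pass (limma, adjusted p = 0.0802), but it passed under equal nuclear totals, under quantile normalisation, under array weights, under edgeR and a replicate block, or without untreated 3D replicate 3 (adjusted p of 0.00198 to 0.0456). The change in 2D passed under equal library totals, under quantile normalisation, or when only the groups compared were fitted (adjusted p of 2.11e-04 to 0.0445).

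TUBA1B, an alpha tubulin made by most cell types, followed another pattern. TUBA1B stood at 34786, 30963, 31175 and 29713 normalised reads in the untreated 2D libraries and at 23881, 25412, 26696 and 27415 in the untreated 3D libraries. With MPP, TUBA1B stood at 26353, 25698, 26588 and 28398 in 2D and at 20356, 25427, 28776 and 23753 in 3D. The untreated 2D libraries were the highest and overlapped no other group. TUBA1B was lower in untreated 3D (limma, log2 -0.29, SE 0.083, adjusted p = 0.00644) and fell with MPP in 2D (limma, log2 -0.24, SE 0.083, adjusted p = 0.0285). The fall with MPP was lost under equal library totals, or without any 1 of untreated 2D replicate 1 and MPP-treated 2D replicates 1, 2 and 3 (adjusted p of 0.0597 to 0.222). With MPP, 3D and 2D did not differ beyond the spread (log2 -0.13, 95% interval -0.31 to 0.040), though limma called a decrease without MPP-treated 3D replicate 3 (adjusted p = 0.0406). TUBA4A was the only one of the 4 alpha tubulin members that rose in 3D. Its gene, unlike those of the other members of this role, encodes no terminal tyrosine. TUBA4A stood at 178, 144, 108 and 183 normalised reads in the untreated 2D libraries and at 207, 270.1, 247 and 203 in the untreated 3D libraries. With MPP, TUBA4A stood at 95.3, 124, 125 and 113 in 2D and at 212, 164, 170.4 and 123 in 3D. All untreated 3D libraries lay above all untreated 2D libraries, and the MPP groups overlapped. The rise was called without MPP (limma, log2 0.61, SE 0.20, adjusted p = 0.0138) and with it (limma, log2 0.53, SE 0.20, adjusted p = 0.0356). The first was lost without untreated 2D replicate 3 (adjusted p = 0.0677). The second was lost under array weights, under a replicate block, or without any 1 of MPP-treated 2D replicates 1 and 4 and MPP-treated 3D replicates 1, 2 and 3 (adjusted p of 0.0504 to 0.128). With MPP TUBA4A changed by log2 -0.48 in 3D (limma, adjusted p = 0.0614), which passed under array weights, with DESeq2, or without MPP-treated 3D replicate 1 (adjusted p of 0.0287 to 0.0485). In 2D its change with MPP was log2 -0.40 (limma, adjusted p = 0.120), which passed without untreated 2D replicate 3 (adjusted p = 0.0373). TUBA1C, at means of 61.5 ± 10.6, 64.7 ± 19.0, 48.9 ± 15.0 and 47.5 ± 8.42 in 2D and 3D without MPP and in 2D and 3D with MPP (SD, n = 4), passed no test. Near-identical copies limit these values: 18.3% of 100-base windows of the TUBA1A transcript and 37.2% of those of TUBA1B occur in another gene, and 72.6% of TUBA1B and 23.4% of TUBA4A exon bases overlap a gene on the opposite strand, and the sources used here do not give whether the counting used strand.

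The beta tubulin genes differ in where neurons use them: TUBB3 is the neuron-specific isotype and a common marker of neurons, TUBB2A and TUBB2B are abundant in brain, TUBB4A is enriched in myelinating cells and adult brain, and TUBB4B and TUBB6 are made more widely. TUBB2A and TUBB2B lie next to each other on chromosome 6 and are close copies. Since both rose with MPP in 2D, the 250 bases before the start of each gene are shown from RefSeq (GRCh38.p14), 5′ to 3′ on the gene's strand, at chr6:3157545-3157794, minus strand, and chr6:3227654-3227903, minus strand. Capitals mark the TATA box TATAAA, the core TGACG of the cyclic AMP response element and the CCAAT box, on either strand, so that CGTCA is TGACG and ATTGG is CCAAT on the other strand.
TUBB2A: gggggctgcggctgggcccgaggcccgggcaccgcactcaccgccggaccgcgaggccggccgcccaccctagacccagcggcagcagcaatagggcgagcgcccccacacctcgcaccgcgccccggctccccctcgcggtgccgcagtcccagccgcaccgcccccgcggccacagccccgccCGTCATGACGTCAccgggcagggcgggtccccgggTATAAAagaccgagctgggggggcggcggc
TUBB2B: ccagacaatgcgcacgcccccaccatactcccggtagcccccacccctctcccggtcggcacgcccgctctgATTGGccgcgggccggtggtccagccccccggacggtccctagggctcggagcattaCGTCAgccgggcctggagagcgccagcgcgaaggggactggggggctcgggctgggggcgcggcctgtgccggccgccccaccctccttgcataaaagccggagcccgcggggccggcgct
In the TUBB2A window the TATA box begins 30 bases before the start, and 3 matches to TGACG begin 65, 60 and 57 bases before it, of which the first adjoins the second and the second overlaps the third. The TUBB2B window holds 1 match to TGACG at 121 bases and a CCAAT box at 178 bases before the start, and no TATAAA. Of 35116 promoter windows of this length, 10.72% hold TATAAA, 21.22% hold TGACG and 32.01% hold CCAAT on either strand. In an alignment of both windows, 140 of 217 aligned bases were identical (64.5%). In the transcripts, 54.4% of 100-base windows of TUBB2A also occur in TUBB2B, so reads may be divided between this pair and its values are uncertain.

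TUBB2B and TUBB2A both rose with MPP in the dish but not in the scaffold. TUBB2B stood at 18304, 16152, 16959 and 16077 normalised reads in the untreated 2D libraries and at 21575, 23358, 21972 and 27769 in the untreated 3D libraries. With MPP, TUBB2B stood at 24328, 28283, 26415 and 25533 in 2D and at 21229, 26806, 22713 and 24568 in 3D. Only the untreated 2D libraries stood apart, below all others. TUBB2B was higher in untreated 3D than in untreated 2D (limma, log2 0.48, SE 0.083, adjusted p = 5.68e-05) and rose with MPP in 2D (limma, log2 0.63, SE 0.083, adjusted p = 4.29e-06), while the change in 3D was log2 0.012 (95% interval -0.16 to 0.18). The effects differed by log2 -0.62 (limma, SE 0.12, adjusted p = 6.55e-04). TUBB2A stood at 4669, 4273, 4718 and 4352 normalised reads in the untreated 2D libraries and at 4073, 4295, 3666 and 4939.9 in the untreated 3D libraries. With MPP, TUBB2A stood at 5431, 6333, 6486 and 5989.6 in 2D and at 2724, 4029, 3717 and 3539 in 3D. For TUBB2A the MPP-treated 2D libraries were the highest, and replicate 1 of MPP-treated 3D was the lowest of all. MPP raised TUBB2A in 2D (limma, log2 0.43, SE 0.10, adjusted p = 0.00227) and lowered it in 3D (limma, log2 -0.28, SE 0.10, adjusted p = 0.0329), and these effects differed (limma, log2 -0.71, SE 0.14, adjusted p = 0.00119). The fall in 3D was lost under equal library totals, under equal nuclear totals, under quantile normalisation, under array weights, when only the groups compared were fitted, or without any 1 of untreated 3D replicates 2 and 4 and MPP-treated 3D replicates 1 and 4 (adjusted p of 0.0518 to 0.166).

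TUBB3 was lower in the scaffold, above all with MPP. TUBB3 stood at 26178, 23294, 22838 and 22854 normalised reads in the untreated 2D libraries and at 19339, 19251, 19757 and 21963 in the untreated 3D libraries. With MPP, TUBB3 stood at 22264, 21999, 23821 and 23581 in 2D and at 10421, 14032, 15538 and 13643 in 3D. Every 3D library lay below every 2D library of the same treatment, and the 4 MPP-treated 3D libraries were the lowest. The decrease in untreated 3D was small (limma, log2 -0.24, SE 0.089, adjusted p = 0.0294), and with MPP it was larger (limma, log2 -0.79, SE 0.089, adjusted p = 3.64e-07). MPP lowered TUBB3 in 3D (limma, log2 -0.60, SE 0.089, adjusted p = 2.01e-05) to 0.668 of the untreated mean, and in 2D the change was log2 -0.053 (95% interval -0.24 to 0.13). The difference of these effects passed the test (limma, log2 -0.54, SE 0.13, adjusted p = 0.00438) but was lost under quantile normalisation (adjusted p = 0.0569). The untreated decrease was lost without untreated 3D replicates 1 and 3 together, or without any 1 of untreated 2D replicate 1 and untreated 3D replicates 1 and 2 (adjusted p of 0.0632 to 0.143). In GENCODE 29, 48.1% of TUBB3 exon bases belong to a read-through gene on the same strand as well.

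TUBB6 was the beta tubulin gene measured with the largest difference between cultures under MPP, while without MPP the change of TUBB4A was larger. TUBB6 stood at 916, 893, 809 and 808 normalised reads in the untreated 2D libraries and at 610.2, 714, 674 and 677 in the untreated 3D libraries. With MPP, TUBB6 stood at 1004, 1197, 1118 and 1221 in 2D and at 529, 539, 550.0 and 595 in 3D. No pair of groups overlapped. TUBB6 was lower in 3D without MPP (limma, log2 -0.36, SE 0.091, adjusted p = 0.00275) and at 0.487 of the 2D mean with MPP (limma, log2 -1.03, SE 0.091, adjusted p = 7.25e-09). MPP raised it in 2D (limma, log2 0.40, SE 0.091, adjusted p = 0.00146) and lowered it in 3D (limma, log2 -0.27, SE 0.091, adjusted p = 0.0233), with a difference of log2 -0.68 (limma, adjusted p = 6.67e-04). The fall in 3D was lost under equal library totals, under array weights, when only the groups compared were fitted, or without any 1 of untreated 3D replicate 2 and MPP-treated 3D replicates 1 and 2 (adjusted p of 0.0523 to 0.130). Of TUBB6 exon bases, 20.5% overlap AFG3L2 on the opposite strand.

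TUBB4A was called between cultures but not for MPP, and TUBB4B for MPP but not between cultures. TUBB4A stood at 4564, 4093, 3914 and 3821 normalised reads in the untreated 2D libraries and at 2396, 2489, 2366 and 2499.8 in the untreated 3D libraries. With MPP, TUBB4A stood at 3876, 3716, 4058 and 3859 in 2D and at 2159.9, 2286, 2535 and 2255 in 3D. TUBB4A was lower in every 3D library than in any 2D library, whatever the treatment. Its level was lower in 3D without MPP (limma, log2 -0.75, SE 0.069, adjusted p = 9.70e-09) and with it (limma, log2 -0.75, SE 0.069, adjusted p = 1.37e-08), while MPP changed it by log2 -0.077 in 2D (95% interval -0.22 to 0.065). TUBB4B stood at 9816, 9221, 8074 and 7691 normalised reads in the untreated 2D libraries and at 7468, 7403, 7221 and 8764 in the untreated 3D libraries. With MPP, TUBB4B stood at 5097, 5239, 5521 and 5528 in 2D and at 4098, 4399, 5853 and 4873 in 3D. For TUBB4B the MPP-treated libraries of both cultures lay below all untreated ones, and 2D and 3D overlapped. MPP lowered TUBB4B in 2D (limma, log2 -0.70, SE 0.10, adjusted p = 7.21e-06) and in 3D (limma, log2 -0.69, SE 0.10, adjusted p = 7.03e-06), to 0.615 and 0.623 of the untreated means. Between cultures TUBB4B changed by log2 -0.17 without MPP (95% interval -0.37 to 0.027), where limma called a decrease under equal nuclear totals (adjusted p = 0.0399). With MPP the change was log2 -0.17 and passed without MPP-treated 3D replicate 3 (adjusted p = 0.0226).

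**Figure D2:**
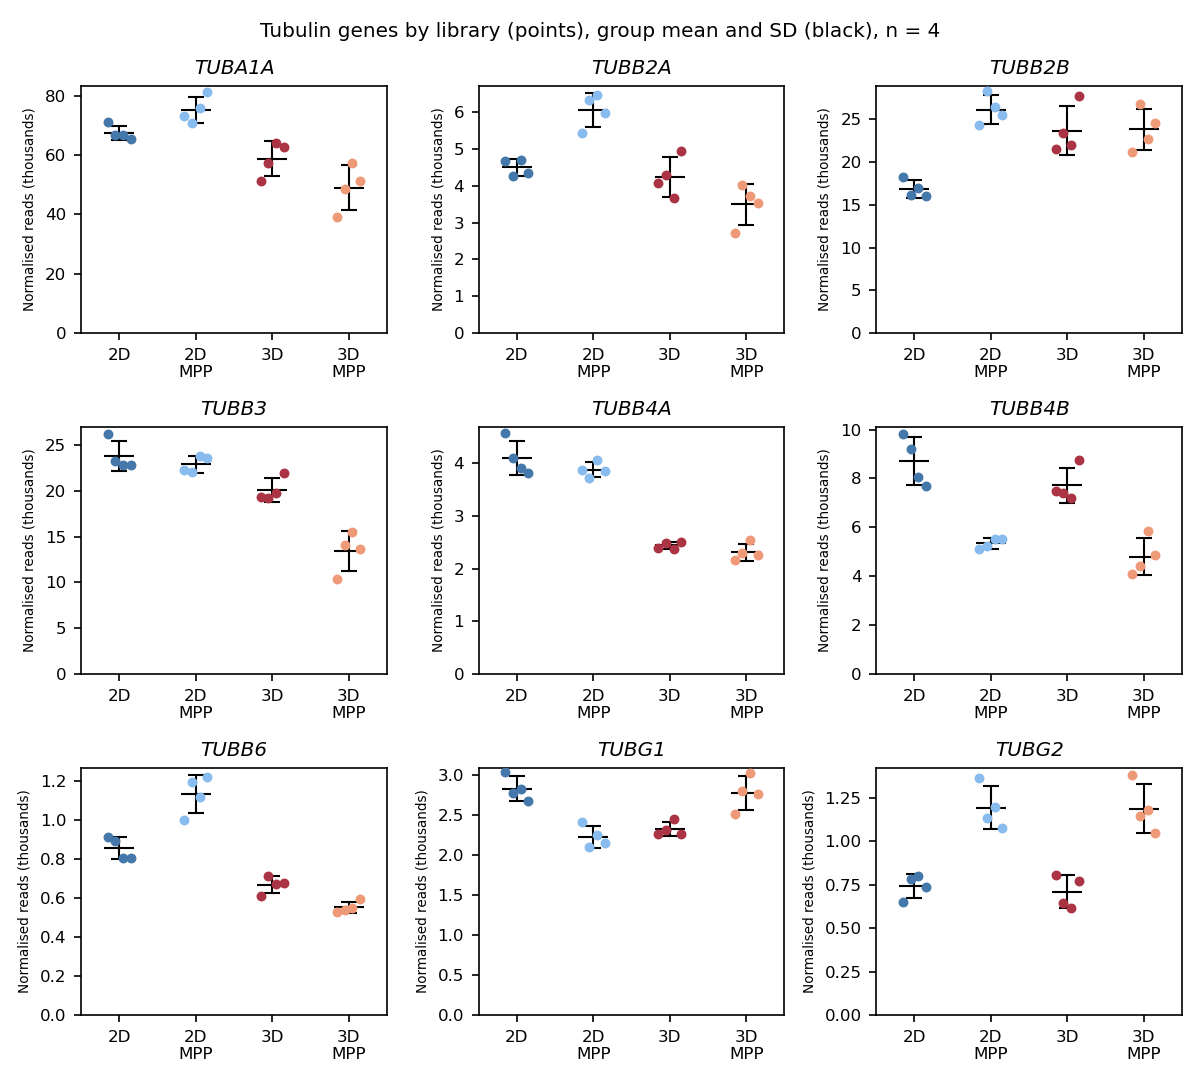
Normalised read counts of the tubulin genes (vertical axes, from 0, in kiloreads) in each library (points) of the 4 groups, with black lines for the mean and SD (n = 4). TUBB4A is lower in both 3D groups, TUBB4B in both MPP groups, and TUBB3 is lowest in MPP-treated 3D.

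As shares of the reads of the 6 beta tubulin genes measured, TUBB2B supplied 28.7% ± 0.729 in 2D without MPP, 39.9% ± 1.64 in 2D with MPP, 40.2% ± 1.24 in 3D without MPP and 49.3% ± 3.26 in 3D with MPP (SD, n = 4). TUBB3 supplied 40.5% ± 0.539, 35.0% ± 1.41, 34.2% ± 1.18 and 27.6% ± 2.17 in the same order. By reads TUBB3 led in the untreated 2D libraries and TUBB2B in the MPP-treated 3D libraries. Per exon length the lead in untreated 2D turned, with TUBB2B at 32.7% ± 0.839 and TUBB3 at 28.3% ± 0.477 (SD, n = 4), and TUBB2B led in all 4 groups. The share of TUBB4B was 14.8% ± 0.979, 8.17% ± 0.235, 13.1% ± 0.260 and 9.94% ± 1.25. Summed over the 6 genes, beta tubulin reads lay between 55602 and 64447 in 2D without MPP, between 61999 and 67419 in 2D with MPP, between 55462 and 66612 in 3D without MPP and between 41162 and 52091 in 3D with MPP. Replicate 1 of MPP-treated 3D was the lowest of its group for TUBA1A, TUBA1B and each beta tubulin. Among alpha tubulin reads, TUBA1A supplied 67.9% ± 0.672, 73.7% ± 0.353, 69.1% ± 0.988 and 66.4% ± 1.29. TUBB is not among these genes, shares are of reads and not of molecules, and no test was made.

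**Figure D3:**
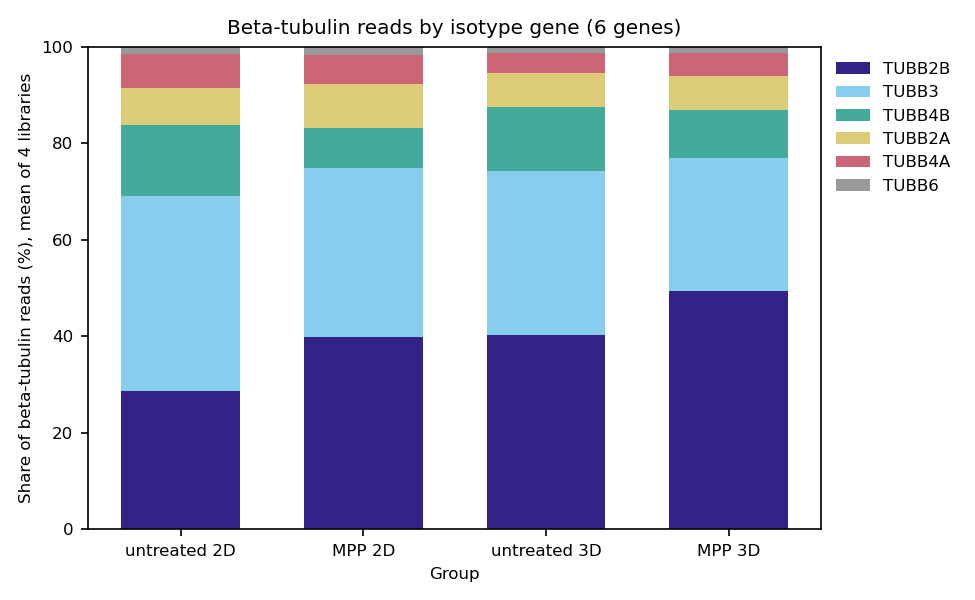
Share of beta tubulin reads supplied by each of 6 isotype genes (vertical axis, in percent), as the mean over the 4 libraries of each group. The TUBB2B segment is larger and the TUBB3 segment smaller in MPP-treated 3D than in untreated 2D.

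Gamma tubulin does not form the wall of the polymer but sits in the ring complex that starts it. TUBG1 encodes the widely used gamma tubulin and TUBG2 its brain-enriched copy, and 14.9% of the TUBG1 windows occur in TUBG2. TUBG1 stood at 3039.8, 2779.7, 2819 and 2676 normalised reads in the untreated 2D libraries and at 2266, 2308, 2450.4 and 2266 in the untreated 3D libraries. With MPP, TUBG1 stood at 2409.8, 2103, 2244 and 2155 in 2D and at 2513, 2797, 3022 and 2761 in 3D. Untreated 2D was above both the untreated 3D and the MPP-treated 2D libraries, without overlap, and every MPP-treated 3D library lay above every untreated 3D library. TUBG1 was lower in untreated 3D (limma, log2 -0.28, SE 0.071, adjusted p = 0.00227) and higher in 3D under MPP (limma, log2 0.31, SE 0.071, adjusted p = 0.00118). MPP lowered it in 2D (limma, log2 -0.34, SE 0.071, adjusted p = 6.27e-04) and raised it in 3D (limma, log2 0.25, SE 0.071, adjusted p = 0.00760), with a difference of log2 0.60 (limma, adjusted p = 1.67e-04). The summed proliferation markers were also highest in untreated 2D, and their ranges in MPP-treated and untreated 3D overlapped (10460 to 18050 and 13370 to 14870). All 12 markers were called lower in untreated 3D, lower with MPP in 2D and more positive in the difference of the effects. With MPP in 3D 3 were higher and 2 lower, and in 3D against 2D under MPP 3 were higher and 0 lower (limma). Their part in the TUBG1 values was not tested. TUBG2 stood at 649.7, 786, 802 and 736 normalised reads in the untreated 2D libraries and at 808, 648, 616 and 773 in the untreated 3D libraries. With MPP, TUBG2 stood at 1369, 1135, 1202 and 1077 in 2D and at 1385, 1146, 1179 and 1047 in 3D. For TUBG2 all MPP-treated libraries lay above all untreated ones in both cultures. MPP raised TUBG2 in 2D (limma, log2 0.68, SE 0.11, adjusted p = 5.19e-05) and in 3D (limma, log2 0.74, SE 0.11, adjusted p = 1.76e-05), and 3D differed from 2D by log2 -0.069 without MPP (95% interval -0.30 to 0.16).

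Structural microtubule-associated proteins line the polymer and stiffen or bundle it. Of the 6 tested, MAP1A, MAP1B, MAP2 and MAP4 fell in untreated 3D, MAP7 rose and MAP6 did not pass, with the same calls under MPP (limma). MAP1B, an early axonal protein needed for neurite growth, changed most. MAP1B stood at 33105, 28438, 28290.3 and 38204 normalised reads in the untreated 2D libraries and at 18036, 24152, 24407 and 19994 in the untreated 3D libraries. With MPP, MAP1B stood at 28201, 24309.9, 29237 and 42765 in 2D and at 9405, 7988, 11114 and 14009 in 3D. The MPP-treated 3D libraries were below all other libraries. MAP1B was lower in untreated 3D (limma, log2 -0.56, SE 0.16, adjusted p = 0.00570) and at 0.342 of the 2D mean with MPP (limma, log2 -1.55, SE 0.16, adjusted p = 7.59e-08). MPP lowered it in 3D (limma, log2 -1.05, SE 0.16, adjusted p = 2.24e-05) and not detectably in 2D (log2 -0.062, 95% interval -0.39 to 0.27), and the effects differed (limma, log2 -0.98, SE 0.22, adjusted p = 0.00369).

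MAP2 marks dendrites and MAP1A is the form of the MAP1 family that predominates in mature neurons. MAP2 stood at 10619, 9491, 8887 and 10938 normalised reads in the untreated 2D libraries and at 6869, 8427, 8418 and 6883 in the untreated 3D libraries. With MPP, MAP2 stood at 9364, 9106, 9648 and 12783 in 2D and at 7089, 6352, 7484 and 7940.4 in 3D. In each treatment all 3D libraries lay below all 2D libraries, and replicate 4 of MPP-treated 2D was the highest. MAP2 was lower in 3D without MPP (limma, log2 -0.39, SE 0.10, adjusted p = 0.00380) and with it (limma, log2 -0.49, SE 0.10, adjusted p = 5.76e-04), while MPP changed it by log2 0.026 in 2D (95% interval -0.19 to 0.24) and -0.081 in 3D (-0.29 to 0.13). MAP1A stood at 4962, 4874, 4315 and 6329 normalised reads in the untreated 2D libraries and at 3044, 3837, 3980.1 and 3794 in the untreated 3D libraries. With MPP, MAP1A stood at 4962, 5048, 5001 and 6232 in 2D and at 3310.2, 2812, 3199 and 4198 in 3D. MAP1A showed the same order, again with replicate 4 highest in both 2D groups. It was lower in 3D without MPP (limma, log2 -0.48, SE 0.12, adjusted p = 0.00235) and with it (limma, log2 -0.66, SE 0.12, adjusted p = 1.32e-04).

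MAP4 and MAP7 are not confined to neurons: MAP4 is the main stabilising protein of dividing and non-neuronal cells, and MAP7 recruits kinesin-1 to microtubules. MAP4 stood at 18240.0, 17063, 16721 and 18374 normalised reads in the untreated 2D libraries and at 13519, 14812, 14688 and 14249.9 in the untreated 3D libraries. With MPP, MAP4 stood at 22938, 23762, 22388 and 24348 in 2D and at 18293, 15834, 16545 and 18983 in 3D. MPP-treated libraries lay above untreated ones in each culture, and 3D below 2D in each treatment. MPP raised MAP4 in 2D (limma, log2 0.41, SE 0.065, adjusted p = 4.26e-05) and in 3D (limma, log2 0.28, SE 0.065, adjusted p = 0.00182), and it was lower in untreated 3D (limma, log2 -0.30, SE 0.065, adjusted p = 6.88e-04). MAP7 stood at 773, 955, 861 and 938 normalised reads in the untreated 2D libraries and at 1100.0, 1393, 1227 and 858 in the untreated 3D libraries. With MPP, MAP7 stood at 1199, 1119, 988 and 964 in 2D and at 1596, 1344, 1543 and 1556 in 3D. MAP7 was highest in MPP-treated 3D, whose libraries overlapped only those of untreated 3D. It was higher in 3D without MPP (limma, log2 0.36, SE 0.12, adjusted p = 0.0174) and with it (limma, log2 0.50, SE 0.12, adjusted p = 0.00193), and MPP raised it in 3D (limma, log2 0.42, SE 0.12, adjusted p = 0.00875). The untreated rise was lost under equal nuclear totals, without untreated 3D replicates 1 and 3 together, or without any 1 of untreated 2D replicate 1 and untreated 3D replicate 2 (adjusted p of 0.0586 to 0.0982). In 2D the change with MPP was log2 0.27 (limma, adjusted p = 0.0786) and passed under equal library totals, under quantile normalisation, under array weights, or when only the groups compared were fitted (adjusted p of 0.0159 to 0.0421). MAP6, which makes microtubules resist cold, had means of 8391 ± 247, 9023 ± 428, 8643 ± 177 and 9054 ± 219 in 2D and 3D without MPP and in 2D and 3D with MPP (SD, n = 4). Its call changed only for MPP in 2D, where it passed under equal library totals (adjusted p = 0.0424).

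MAPT encodes tau, the axonal protein that forms tangles in several dementias. Its values were 13.79, 0, 6.28 and 14.82 in 2D and 0, 2.35, 0 and 2.98 in 3D without MPP, and 0, 10.78, 0 and 0 in 2D and 3.61, 1.79, 0 and 5.52 in 3D with MPP, 66 reads over all 16 libraries. Only 3 libraries reached 10, so it was not tested. KANSL1 and NSF, which lie beside MAPT and which most cells use, were also listed at means of only 17.4 and 5.08 normalised reads, whereas NMT1 and PLCD3 further along the chromosome were at 5215 and 3176. No statement on tau expression is drawn from these values.

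End-binding proteins track the growing tip of the microtubule. Among the 3 genes, MAPRE1, the general one, passed no test and had means of 6543 ± 335, 6620.4 ± 596, 6396 ± 192 and 6653 ± 583 in 2D and 3D without MPP and in 2D and 3D with MPP (SD, n = 4). MAPRE2 stood at 5055, 4654, 4663 and 4533 normalised reads in the untreated 2D libraries and at 3729.8, 3831, 4140.1 and 3056 in the untreated 3D libraries. With MPP, MAPRE2 stood at 4759, 4326, 4664 and 4691 in 2D and at 4555, 4120.0, 4533 and 4567 in 3D. MAPRE2 was lowest in untreated 3D, where 3 of 4 libraries lay below all others, and the other groups overlapped. It was lower in untreated 3D (limma, log2 -0.36, SE 0.077, adjusted p = 5.28e-04) and rose with MPP in 3D (limma, log2 0.28, SE 0.077, adjusted p = 0.00787). The difference of the MPP effects, log2 0.31, did not pass (limma, adjusted p = 0.0574), but it passed under equal nuclear totals, under quantile normalisation, with TMM scaling, under array weights, with DESeq2, without untreated 3D replicates 1 and 3 together, or without any 1 of untreated 3D replicate 3 and MPP-treated 3D replicate 2 (adjusted p of 0.0146 to 0.0496). MAPRE3, the neuron-enriched form, was lower in 3D. MAPRE3 stood at 4596, 4744, 4776 and 4615 normalised reads in the untreated 2D libraries and at 4333, 4041, 3656 and 4288 in the untreated 3D libraries. With MPP, MAPRE3 stood at 4284, 4299, 4403 and 3823 in 2D and at 3004, 3623, 3508 and 3227 in 3D. The MPP-treated 3D libraries were the lowest and overlapped none of the other groups. The decrease was called without MPP (limma, log2 -0.20, SE 0.072, adjusted p = 0.0259), with MPP (limma, log2 -0.33, SE 0.072, adjusted p = 8.48e-04), and for MPP in 3D (limma, log2 -0.29, SE 0.072, adjusted p = 0.00333). The first was lost without untreated 3D replicates 1 and 3 together, or without any 1 of untreated 2D replicates 2 and 3 and untreated 3D replicate 3 (adjusted p of 0.0568 to 0.109). The last was lost under equal library totals (adjusted p = 0.0515). MPP in 2D changed MAPRE3 by log2 -0.16 (limma, adjusted p = 0.0945) and passed under array weights, or when only the groups compared were fitted (adjusted p of 0.0264 to 0.0332).

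Doublecortin and its kinases bind between the filaments of the microtubule wall. DCX marks migrating and newly born neurons, and DCLK1 and DCLK2 join a doublecortin domain to a protein kinase. These 3 genes fell together in 3D and rose with MPP there, so the 250 bases before their starts are shown from RefSeq (GRCh38.p14), 5′ to 3′ on the gene's strand. The windows lie at chrX:111412193-111412442, minus strand, chr13:36131940-36132189, minus strand and chr4:150078195-150078444, plus strand, and for DCX and DCLK1, each with 3 starts in the table, the most upstream start was used. Capitals mark TATAAA in DCX and GCGTG, a core letter run of the hypoxia response element, in DCLK2.
DCX: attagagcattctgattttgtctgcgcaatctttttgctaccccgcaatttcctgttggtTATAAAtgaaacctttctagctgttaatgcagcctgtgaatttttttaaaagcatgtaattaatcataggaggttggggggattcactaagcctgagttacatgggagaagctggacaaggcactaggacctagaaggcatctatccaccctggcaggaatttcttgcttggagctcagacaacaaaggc
DCLK1: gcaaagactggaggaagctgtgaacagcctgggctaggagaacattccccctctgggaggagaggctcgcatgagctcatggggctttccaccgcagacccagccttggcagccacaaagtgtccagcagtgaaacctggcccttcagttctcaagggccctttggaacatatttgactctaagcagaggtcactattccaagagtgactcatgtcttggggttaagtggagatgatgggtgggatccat
DCLK2: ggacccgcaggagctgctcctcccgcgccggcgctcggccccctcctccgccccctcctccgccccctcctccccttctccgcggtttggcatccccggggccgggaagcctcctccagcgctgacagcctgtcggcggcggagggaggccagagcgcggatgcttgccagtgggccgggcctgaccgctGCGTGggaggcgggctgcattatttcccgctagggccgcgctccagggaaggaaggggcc
The TATAAA match in DCX begins 190 bases before the start and the GCGTG match in DCLK2 begins 60 bases before it. The DCLK1 window holds no match on either strand to any of these motifs, nor to ACGTG, the other hypoxia core searched, which says only that these letters are not there. Of the 35116 windows, 32.22% hold GCGTG and 18.51% hold ACGTG. No motif of this search was shared by the 3 windows shown, and this depends on the start chosen. Among the other starts, a DCLK1 window held 2 matches to GCGTG, another DCLK1 window held TGACG, and a DCX window held CCAAT.

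DCX stood at 13655, 12655, 11036 and 13707 normalised reads in the untreated 2D libraries and at 5322, 6841, 6335 and 4892 in the untreated 3D libraries. With MPP, DCX stood at 11369.6, 11899, 11539.6 and 15230.5 in 2D and at 7113, 7145, 8385 and 8379 in 3D. Every 3D library lay below every 2D library, and within 3D every MPP-treated library lay above every untreated one. DCX was lower in untreated 3D at 0.458 of the 2D mean (limma, log2 -1.13, SE 0.11, adjusted p = 1.24e-08) and lower with MPP (limma, log2 -0.68, SE 0.11, adjusted p = 2.32e-05). MPP raised it in 3D (limma, log2 0.42, SE 0.11, adjusted p = 0.00397), and in 2D the change was log2 -0.034 (95% interval -0.25 to 0.19). The effects differed (limma, log2 0.45, SE 0.15, adjusted p = 0.0454), a call that was lost under no filter, with robust empirical Bayes, under a replicate block, under edgeR and a replicate block, without untreated 3D replicates 1 and 3 together, or without any 1 of untreated 2D replicates 1, 2 and 4, untreated 3D replicates 1 and 4, MPP-treated 2D replicates 1, 2 and 3 and MPP-treated 3D replicates 3 and 4 (adjusted p of 0.0514 to 0.0982).

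DCLK1 stood at 6152, 5674, 5268 and 5973 normalised reads in the untreated 2D libraries and at 2706, 3018, 2929 and 2278 in the untreated 3D libraries. With MPP, DCLK1 stood at 5667, 5931, 6018 and 6582 in 2D and at 4889, 4512, 5116 and 4666 in 3D. The untreated 3D libraries were the lowest and those of MPP-treated 3D lay between them and the 2D libraries, without overlap. DCLK1 was at 0.474 of the 2D mean in untreated 3D (limma, log2 -1.08, SE 0.081, adjusted p = 3.16e-10) and at 0.793 with MPP (limma, log2 -0.33, SE 0.081, adjusted p = 0.00226). Its rise with MPP in 3D (limma, log2 0.82, SE 0.081, adjusted p = 6.46e-08) was the largest rise among all members in that comparison, and its effect differed from that in 2D (limma, log2 0.75, SE 0.11, adjusted p = 5.64e-05). DCLK2 stood at 5105, 4931, 4732 and 4830.0 normalised reads in the untreated 2D libraries and at 2304, 2415, 2115 and 2774 in the untreated 3D libraries. With MPP, DCLK2 stood at 4779, 5051, 4936 and 4963 in 2D and at 2982, 3558, 3576 and 3374 in 3D. DCLK2 showed the same order of groups. It was lower in 3D without MPP (limma, log2 -1.03, SE 0.076, adjusted p = 2.57e-10) and with it, at 0.684 of the 2D mean (limma, log2 -0.55, SE 0.076, adjusted p = 5.45e-06). DCLK2 rose with MPP in 3D (limma, log2 0.49, SE 0.076, adjusted p = 2.92e-05), and the effects differed (limma, log2 0.48, SE 0.11, adjusted p = 0.00320).

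Stathmins bind free tubulin and promote the shrinking of microtubules. STMN1 is found in dividing and immature cells, and STMN2 is a neuronal form carried to growth cones, the most abundant stathmin here per kb (13470 ± 777 normalised reads per kb in untreated 2D, SD, n = 4, beside 7556 ± 169.6 for STMN1). STMN2 stood at 34444, 30942, 30261 and 31649 normalised reads in the untreated 2D libraries and at 15551, 16335, 18838 and 14981 in the untreated 3D libraries. With MPP, STMN2 stood at 43287, 41236, 41483 and 47193 in 2D and at 23749, 23099, 26321 and 24001 in 3D. Every 3D library lay below every 2D library, and MPP-treated libraries lay above untreated ones in both cultures. STMN2 was at 0.516 of the 2D mean in untreated 3D (limma, log2 -0.96, SE 0.074, adjusted p = 5.33e-10) and lower with MPP (limma, log2 -0.83, SE 0.074, adjusted p = 7.88e-09). MPP raised it in 2D (limma, log2 0.44, SE 0.074, adjusted p = 7.07e-05) and in 3D (limma, log2 0.57, SE 0.074, adjusted p = 3.06e-06), and the difference of these effects was log2 0.12 (95% interval -0.092 to 0.34). STMN1 stood at 19487, 19046, 19171 and 18465 normalised reads in the untreated 2D libraries and at 10571, 10703, 10110.2 and 11725 in the untreated 3D libraries. With MPP, STMN1 stood at 14628, 13984, 15229 and 15655 in 2D and at 9152, 12221, 14563 and 12337 in 3D. Untreated 2D stood above all other groups, and in MPP-treated 3D replicate 1 lay below, and the other 3 above, all untreated 3D libraries. STMN1 was lower in untreated 3D (limma, log2 -0.82, SE 0.093, adjusted p = 2.29e-07) and fell with MPP in 2D (limma, log2 -0.36, SE 0.093, adjusted p = 0.00489), with effects that differed (limma, log2 0.50, SE 0.13, adjusted p = 0.0106). The change with MPP in 3D was log2 0.15 (95% interval -0.048 to 0.34) and passed without MPP-treated 3D replicate 1 (adjusted p = 0.00559). The sum of proliferation markers had its highest range in the same group, untreated 2D, and its part in STMN1 was not tested.

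STMN3 and STMN4 are further neuronal stathmins. STMN3 stood at 11225, 10274, 9975 and 10372 normalised reads in the untreated 2D libraries and at 7873, 7698, 6766 and 9059 in the untreated 3D libraries. With MPP, STMN3 stood at 8072, 9201, 8807 and 8512 in 2D and at 6569.9, 7559.9, 6821 and 6655 in 3D. STMN3 was highest in untreated 2D and lowest in MPP-treated 3D, which overlapped untreated 3D. It was lower in untreated 3D (limma, log2 -0.42, SE 0.076, adjusted p = 1.05e-04) and fell with MPP in 2D (limma, log2 -0.27, SE 0.076, adjusted p = 0.00775). The latter call was lost under equal library totals (adjusted p = 0.0929). In 3D the change with MPP was log2 -0.18 (limma, adjusted p = 0.0724) and passed without untreated 3D replicates 1 and 3 together, or without any 1 of untreated 3D replicate 3 and MPP-treated 3D replicate 2 (adjusted p of 0.0105 to 0.0374). STMN4 had means of 4858 ± 297, 4673 ± 301, 5904 ± 238 and 5145 ± 254 in 2D and 3D without MPP and in 2D and 3D with MPP (SD, n = 4). It rose with MPP in 2D (limma, log2 0.28, SE 0.066, adjusted p = 0.00190) and was lower in 3D with MPP (limma, log2 -0.20, SE 0.066, adjusted p = 0.0195), a call that was lost under quantile normalisation, or without any 1 of MPP-treated 2D replicates 1 and 2 and MPP-treated 3D replicate 2 (adjusted p of 0.0503 to 0.0711). With MPP in 3D STMN4 changed by log2 0.14 and passed under equal library totals, under equal nuclear totals, or under quantile normalisation (adjusted p of 0.00714 to 0.0277).

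CRMPs bind tubulin pairs and relay guidance signals to the growth cone. Of the 5 genes 4 fell and DPYSL4 rose in untreated 3D (limma). DPYSL3, which encodes CRMP4, had the largest decrease of all members. DPYSL3 stood at 75548, 69187, 66378 and 71668 normalised reads in the untreated 2D libraries and at 23736, 26589, 25948 and 24101 in the untreated 3D libraries. With MPP, DPYSL3 stood at 82369.9, 80954, 83724 and 92912 in 2D and at 24837, 27659, 31828 and 29359 in 3D. The 3D libraries did not exceed 31828 and the 2D libraries did not fall below 66378. DPYSL3 was at 0.355 of the 2D mean in untreated 3D (limma, log2 -1.49, SE 0.075, adjusted p = 3.51e-13) and at 0.334 with MPP (limma, log2 -1.58, SE 0.075, adjusted p = 2.23e-13). MPP raised it in 2D (limma, log2 0.27, SE 0.075, adjusted p = 0.00910), and in 3D the change was log2 0.18 (limma, adjusted p = 0.0768) and passed under equal library totals, under equal nuclear totals, under quantile normalisation, or without MPP-treated 3D replicate 1 (adjusted p of 0.00767 to 0.0184). The difference of the effects, log2 -0.090, passed only under quantile normalisation (adjusted p = 0.00522).

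CRMP1 stood at 25759, 23892, 23186 and 23464 normalised reads in the untreated 2D libraries and at 15948, 16199.5, 14974 and 16608 in the untreated 3D libraries. With MPP, CRMP1 stood at 27115, 27825, 27573 and 29591 in 2D and at 16695, 18261, 19724 and 19165 in 3D. CRMP1 separated the groups without overlap, with MPP above untreated in each culture and 3D below 2D in each treatment. It was lower in untreated 3D (limma, log2 -0.60, SE 0.063, adjusted p = 8.92e-08) and with MPP (limma, log2 -0.60, SE 0.063, adjusted p = 1.10e-07), and rose with MPP in 2D (limma, log2 0.22, SE 0.063, adjusted p = 0.00989) and 3D (limma, log2 0.21, SE 0.063, adjusted p = 0.0125). The rise in 3D was lost when only the groups compared were fitted, or without untreated 3D replicates 1 and 3 together (adjusted p of 0.0617 to 0.0967). DPYSL4 stood at 4977, 5062, 4810.2 and 4459 normalised reads in the untreated 2D libraries and at 5712, 5779, 5044 and 6715 in the untreated 3D libraries. With MPP, DPYSL4 stood at 3556, 3594, 4076 and 3620.0 in 2D and at 3652, 4393, 4279 and 4131 in 3D. DPYSL4 was lower in all MPP-treated libraries than in any untreated one. MPP lowered it in 2D (limma, log2 -0.38, SE 0.081, adjusted p = 9.26e-04) and in 3D (limma, log2 -0.49, SE 0.081, adjusted p = 5.60e-05). Its rise in untreated 3D (limma, log2 0.26, SE 0.081, adjusted p = 0.0111), where the groups overlapped, was lost under equal nuclear totals (adjusted p = 0.0658).

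DPYSL5 stood at 19014, 17650.4, 17998 and 18106 normalised reads in the untreated 2D libraries and at 13323, 12906, 12013 and 13869.6 in the untreated 3D libraries. With MPP, DPYSL5 stood at 14401, 13788, 14723 and 15139.9 in 2D and at 11503, 12972, 14012 and 12458 in 3D. For DPYSL5 untreated 2D was highest, without overlap, and the 3D groups overlapped each other. It was lower in untreated 3D (limma, log2 -0.48, SE 0.065, adjusted p = 2.70e-06) and fell with MPP in 2D (limma, log2 -0.33, SE 0.065, adjusted p = 4.94e-04), and the effects differed (limma, log2 0.29, SE 0.092, adjusted p = 0.0345). That difference was lost under a replicate block, without untreated 3D replicates 1 and 3 together, or without any 1 of untreated 2D replicates 1, 3 and 4, untreated 3D replicates 2 and 3, MPP-treated 2D replicates 1, 2 and 3 and MPP-treated 3D replicates 2 and 3 (adjusted p of 0.0508 to 0.0934). With MPP the decrease in 3D (limma, log2 -0.19, SE 0.065, adjusted p = 0.0237) was lost under quantile normalisation, or without any 1 of MPP-treated 2D replicates 3 and 4 and MPP-treated 3D replicates 1 and 4 (adjusted p of 0.0579 to 0.0915). DPYSL2, which encodes the best studied CRMP of axon growth, had means of 11703 ± 755, 8682 ± 477, 10406 ± 324 and 8699.6 ± 263 in 2D and 3D without MPP and in 2D and 3D with MPP (SD, n = 4). It fell in untreated 3D (limma, log2 -0.43, SE 0.061, adjusted p = 4.82e-06), and its small fall with MPP in 2D (limma, log2 -0.17, SE 0.061, adjusted p = 0.0357) was lost under equal library totals, under a replicate block, or without any 1 of untreated 2D replicates 1 and 4 and MPP-treated 2D replicates 1, 2 and 3 (adjusted p of 0.0531 to 0.451). The difference of its MPP effects, log2 0.17, passed under equal nuclear totals, or under quantile normalisation (adjusted p of 0.0267 to 0.0363).

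**Figure D4:**
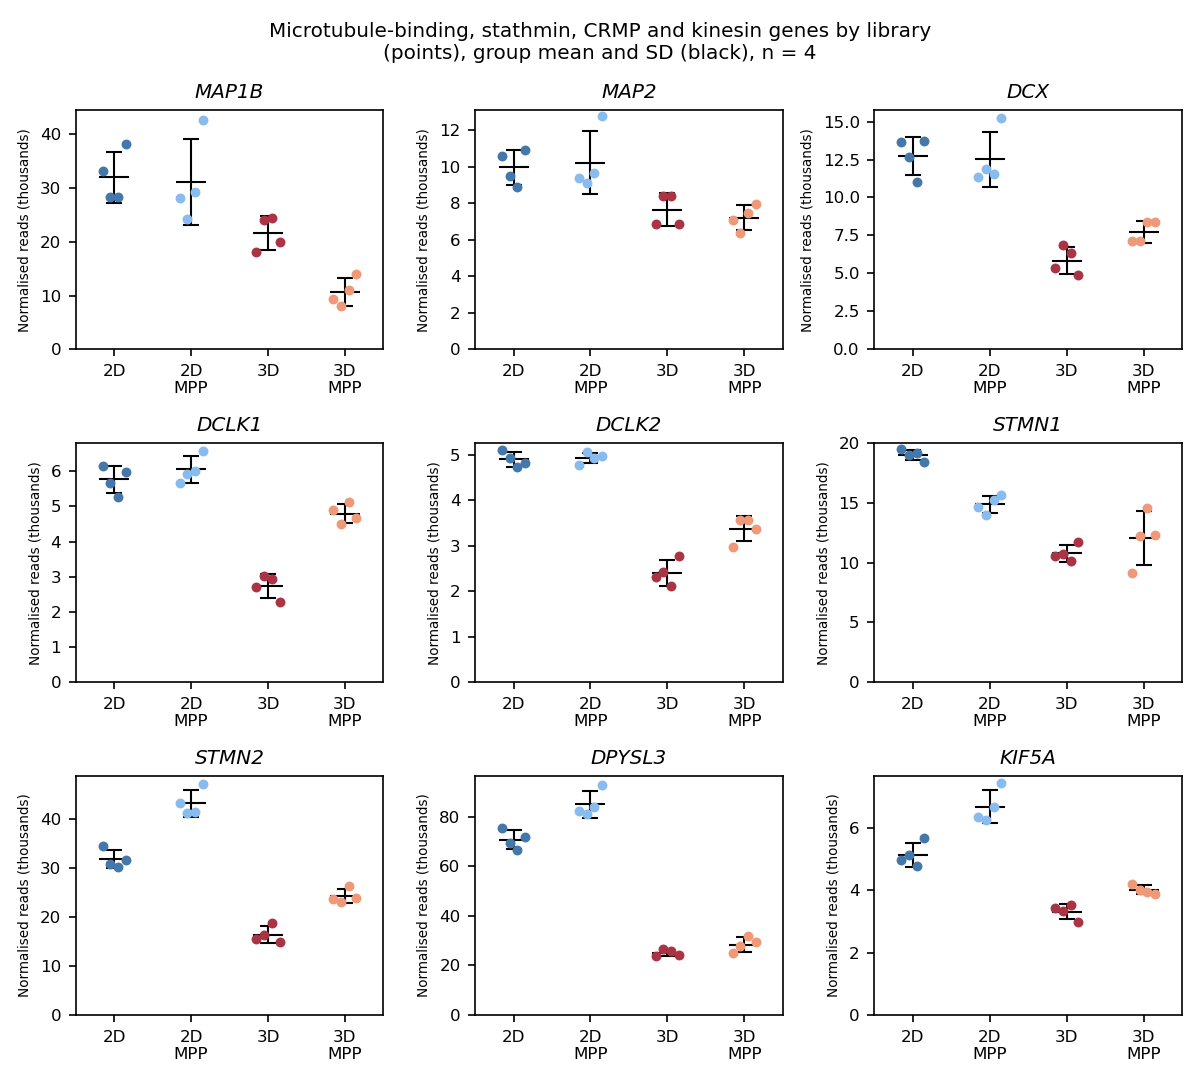
Normalised read counts (vertical axes, from 0, in kiloreads) in each library (points) of the 4 groups for 9 microtubule-associated genes, with black lines for the mean and SD (n = 4). DPYSL3, DCX and STMN2 are lower in both 3D groups, and MAP1B is lowest in MPP-treated 3D.

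TTL puts the terminal tyrosine back on alpha tubulin, and TTLL7 adds glutamate chains to beta tubulin in neurons. TTL stood at 5531, 5277, 5213 and 5637 normalised reads in the untreated 2D libraries and at 4002, 4571, 4346 and 3856 in the untreated 3D libraries. With MPP, TTL stood at 6986, 6896, 6982 and 7659 in 2D and at 5407, 5656, 5891 and 5891 in 3D. MPP-treated libraries lay above untreated ones in each culture and 3D below 2D in each treatment, and replicate 4 was the highest of MPP-treated 2D. MPP raised TTL in 2D (limma, log2 0.40, SE 0.064, adjusted p = 5.59e-05) and in 3D (limma, log2 0.45, SE 0.064, adjusted p = 1.21e-05), and it was lower in untreated 3D (limma, log2 -0.37, SE 0.064, adjusted p = 6.39e-05). TTLL7 stood at 762, 1043, 1069 and 1054 normalised reads in the untreated 2D libraries and at 775, 895, 818 and 555 in the untreated 3D libraries. With MPP, TTLL7 stood at 806, 673, 786 and 802 in 2D and at 578, 562, 675 and 584 in 3D. All groups of TTLL7 overlapped in each comparison, with single low libraries in untreated 2D and untreated 3D. TTLL7 was lower in untreated 3D (limma, log2 -0.38, SE 0.13, adjusted p = 0.0244), in 3D with MPP (limma, log2 -0.35, SE 0.13, adjusted p = 0.0391) and with MPP in 2D (limma, log2 -0.35, SE 0.13, adjusted p = 0.0471). The first call was lost when only the groups compared were fitted, or without any 1 of untreated 2D replicates 2, 3 and 4 and untreated 3D replicate 4 (adjusted p of 0.0535 to 0.116). The second was lost without any 1 of MPP-treated 2D replicates 1, 3 and 4 and MPP-treated 3D replicates 1, 2 and 4 (adjusted p of 0.0783 to 0.0917). The last was lost under equal library totals, under quantile normalisation, under no filter, under a replicate block, or without any 1 of untreated 2D replicates 2, 3 and 4 and MPP-treated 2D replicates 1, 2, 3 and 4 (adjusted p of 0.0527 to 0.162). MPP in 3D changed it by log2 -0.32 (limma, adjusted p = 0.0635) and passed under array weights, with edgeR, with DESeq2, or without any 1 of untreated 3D replicate 4 and MPP-treated 3D replicate 3 (adjusted p of 0.00415 to 0.0455).

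The 3 kinesins are motors of axonal transport, KIF5A and KIF5C as heavy chains of kinesin-1 and KIF1A as the carrier of synaptic vesicle precursors. KIF5A stood at 4985, 5129, 4792 and 5689 normalised reads in the untreated 2D libraries and at 3429.9, 3344, 3529.6 and 2980.0 in the untreated 3D libraries. With MPP, KIF5A stood at 6359.5, 6269.5, 6671 and 7448 in 2D and at 4219, 4016, 3960.5 and 3892 in 3D. The groups of KIF5A did not overlap in any comparison, with MPP-treated 2D highest and untreated 3D lowest. KIF5A was lower in 3D without MPP (limma, log2 -0.63, SE 0.072, adjusted p = 2.54e-07) and with it (limma, log2 -0.73, SE 0.072, adjusted p = 4.42e-08), and MPP raised it in 2D (limma, log2 0.38, SE 0.072, adjusted p = 3.23e-04) and 3D (limma, log2 0.28, SE 0.072, adjusted p = 0.00449). KIF1A stood at 33920.0, 34682, 33882 and 40019 normalised reads in the untreated 2D libraries and at 34301, 38590.3, 38038 and 41057 in the untreated 3D libraries. With MPP, KIF1A stood at 45313, 48229, 47259.8 and 52668 in 2D and at 43952, 38658, 38707 and 44831 in 3D. KIF1A was highest in MPP-treated 2D, and the other groups overlapped. MPP raised it in 2D (limma, log2 0.44, SE 0.077, adjusted p = 1.12e-04), and in 3D the change was log2 0.13 (limma, adjusted p = 0.208) and passed under equal library totals, or under quantile normalisation (adjusted p of 6.59e-04 to 0.0200). The difference of these effects did not pass (limma, log2 -0.31, SE 0.11, adjusted p = 0.0528), but it passed under equal library totals, under a filter on means of at least 50, with robust empirical Bayes, under a replicate block, with edgeR, under edgeR and a replicate block, with DESeq2, without untreated 3D replicates 1 and 3 together, or without any 1 of untreated 2D replicate 4, untreated 3D replicate 1 and MPP-treated 3D replicates 1 and 4 (adjusted p of 0.0179 to 0.0462). With MPP KIF1A was lower in 3D (limma, log2 -0.22, SE 0.077, adjusted p = 0.0261), and that call was lost without any 1 of MPP-treated 2D replicate 4 and MPP-treated 3D replicates 2 and 3 (adjusted p of 0.0788 to 0.0948).

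KIF5C stood at 10262, 9494, 9371 and 9729.8 normalised reads in the untreated 2D libraries and at 8203, 9264, 8973 and 7622 in the untreated 3D libraries. With MPP, KIF5C stood at 8649.7, 8807, 8612 and 10412 in 2D and at 8602, 7365, 8138 and 8241 in 3D. For KIF5C the untreated groups lay close to each other without overlap, and MPP-treated 2D had 1 high library. KIF5C was lower in untreated 3D (limma, log2 -0.19, SE 0.074, adjusted p = 0.0382), a small decrease that was lost under array weights, when only the groups compared were fitted, under a replicate block, under edgeR and a replicate block, without untreated 3D replicates 1 and 3 together, or without any 1 of untreated 2D replicates 1, 2 and 4 and untreated 3D replicates 1 and 4 (adjusted p of 0.0509 to 0.129). It passed no other comparison.

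**Figure D5:**
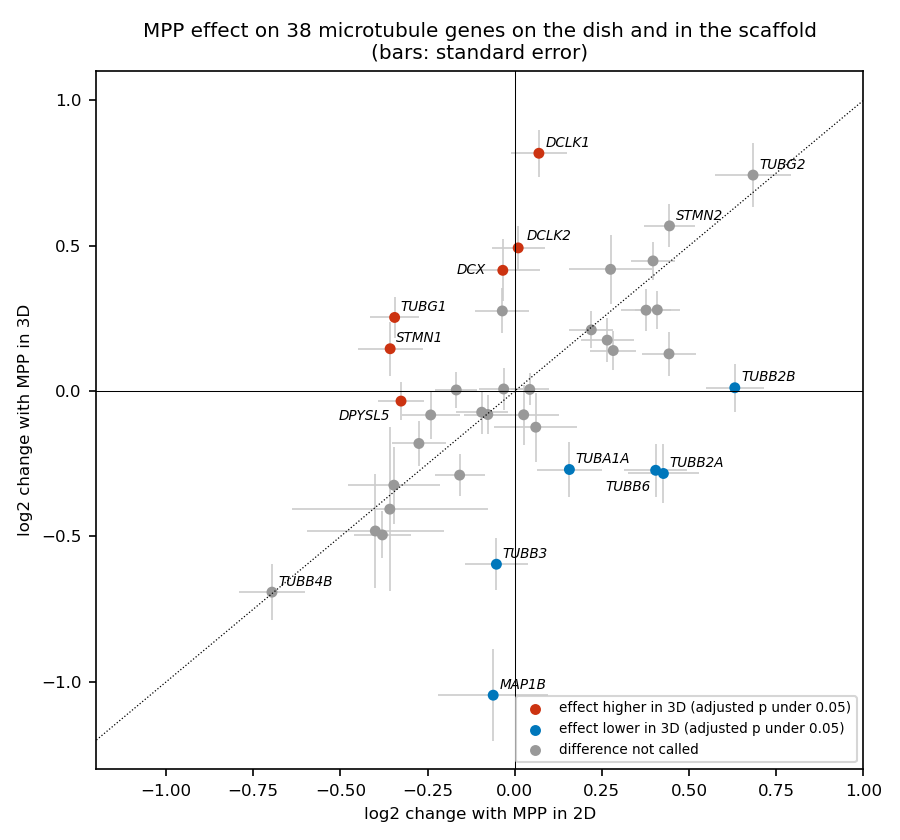
Log2 change with MPP in 2D (horizontal axis) against that in 3D (vertical axis) for the members tested, 1 point a gene, with bars for the SE, colours for the members whose MPP effects differed between cultures and a dotted line where the effects are equal. TUBG1, DCLK1, DCX, DCLK2, STMN1 and DPYSL5 lie above the line and MAP1B, TUBB2A, TUBB6, TUBB2B, TUBB3 and TUBA1A below it.

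Other genes of the microtubule system, taken from lists chosen by function, gave counts to set beside the members. In untreated 3D against 2D, dynein and dynactin, the motor that moves cargo towards the cell body, had 0 higher and 14 lower of 22 tested, and DYNC1I1, its neuronal intermediate chain, fell from 351 ± 33.0 to 109 ± 19.6 (SD, n = 4; limma, log2 -1.69, adjusted p = 1.83e-08). Among plus-end proteins 1 higher and 12 lower of 16 were called, with NAV2, a neuron navigator, falling from 5819 ± 381 to 1871 ± 255 (SD, n = 4; limma, log2 -1.64, adjusted p = 7.85e-12). Transport kinesins and light chains had 2 higher and 9 lower of 20, and KIF21A, which restrains microtubule growth, fell from 13440 ± 784 to 4889 ± 535 (SD, n = 4; limma, log2 -1.46, adjusted p = 5.62e-12). The background was 23.2% higher and 23.0% lower among all genes, and the medians of these lists were log2 -0.24, -0.50 and -0.12. Growth cone genes outside the microtubule families had 1 higher and 5 lower of 9, and GAP43, which also stands among the neuron-like markers, fell from 8270 ± 292 to 3756 ± 374 (SD, n = 4; limma, log2 -1.14, adjusted p = 8.50e-11). The remaining lists gave 6 higher and 9 lower of 21 for tubulin-modifying enzymes, 2 higher and 7 lower of 16 for other structural proteins, 1 higher and 4 lower of 8 for folding cofactors, 1 higher and 2 lower of 8 for chaperonin subunits, 0 higher and 2 lower of 10 for severing and minus-end proteins, 2 higher and 2 lower of 8 for other tubulins and 3 higher and 6 lower of 13 for kinases of these proteins.

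Under MPP the same comparison gave 0 higher and 10 lower of 22 for dynein and dynactin, 1 higher and 8 lower of 16 for plus-end proteins, 1 higher and 10 lower of 20 for transport kinesins and 0 higher and 7 lower of 9 for growth cone genes, beside 19.0% higher and 19.9% lower among all genes. DYNC1I1 was again lower (limma, log2 -1.52, adjusted p = 1.40e-07), as were NAV2 (limma, log2 -1.75, adjusted p = 4.11e-12) and KIF21A (limma, log2 -1.56, adjusted p = 2.89e-12). The other lists had 2 higher and 8 lower of 21 for modifying enzymes, 1 higher and 5 lower of 16 for other structural proteins, 2 higher and 3 lower of 8 for folding cofactors, 3 higher and 0 lower of 8 for chaperonin subunits, 1 higher and 2 lower of 10 for severing proteins, 2 higher and 1 lower of 8 for other tubulins and 2 higher and 4 lower of 13 for kinases. Several of these counts, such as those of the severing proteins, lie near the share over all genes. Among the modifying enzymes AGBL4, which trims glutamates from tubulin, was lower in 3D (limma, log2 -1.15, adjusted p = 0.00175). Its level was low, at 77.6 ± 16.8 in 2D and 34.1 ± 5.76 in 3D with MPP (SD, n = 4). Without MPP AGBL4 was also lower in 3D (limma, log2 -0.83, adjusted p = 0.0152). AGBL3, of the same list, was higher there, at 187 ± 42.4 beside 94.4 ± 20.6 (limma, log2 0.98, adjusted p = 0.00146).

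Genes of the mitotic spindle were lower in untreated 3D and after MPP in 2D in nearly all cases. Spindle motors and spindle proteins had 0 higher and 21 lower of 22 in untreated 3D, 0 higher and 22 lower with MPP in 2D, 0 higher and 1 lower with MPP in 3D and 3 higher and 3 lower in 3D against 2D under MPP. CENPE, a kinetochore motor, fell from 1089 ± 91.8 to 297 ± 28.0 (SD, n = 4; limma, log2 -1.87, adjusted p = 7.66e-08) with MPP in 2D. The difference of the MPP effects was called for 21 of 22, each more positive in 3D, with KIF15 at log2 1.71, adjusted p = 4.98e-05 (limma). All 12 proliferation markers were lower in untreated 3D, lower with MPP in 2D and more positive in their MPP effect in 3D than in 2D, while MPP in 3D alone gave 3 higher and 2 lower, and their part in the spindle genes was not tested. The gamma-tubulin ring complex and augmin, which hold or place TUBG1 on microtubules, had 0 higher and 7 lower of 18 in untreated 3D, 1 higher and 6 lower with MPP in 2D, 5 higher and 1 lower with MPP in 3D, 4 higher and 2 lower in 3D against 2D under MPP and 6 higher and 0 lower in the difference of the effects. Over all genes the shares higher and lower were 23.2% and 23.0% in untreated 3D, 17.7% and 16.9% with MPP in 2D, 17.0% and 17.6% with MPP in 3D, 19.0% and 19.9% in 3D against 2D under MPP and 7.00% and 8.32% in the difference. HAUS8, an augmin subunit, fell with MPP in 2D (limma, log2 -0.91, adjusted p = 0.00299) and HAUS4 rose with MPP in 3D, from 524 ± 71.4 to 1092 ± 77.2 (SD, n = 4; limma, log2 1.06, adjusted p = 1.00e-07).

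For MPP in 2D, chaperonin subunits, which fold new tubulin, had 0 higher and 5 lower of 8, led by CCT3, which fell from 14270 ± 476 to 10280 ± 315 (SD, n = 4; limma, log2 -0.47, adjusted p = 2.78e-06). In 3D the same list had 1 higher and 1 lower, and the difference of the effects 2 higher and 0 lower. Folding cofactors had 0 higher and 3 lower in 2D, 0 higher and 2 lower in 3D and 0 higher and 0 lower in the difference. Tubulin-modifying enzymes had 3 higher and 0 lower in 2D and 2 higher and 2 lower in 3D, with HDAC6, a deacetylase of alpha tubulin, rising in both (limma, log2 0.53, adjusted p = 7.55e-05 in 2D, limma, log2 0.52, adjusted p = 8.48e-05 in 3D). Transport kinesins had 4 higher and 2 lower in 2D and 4 higher and 3 lower in 3D, and KIF26B fell in 3D, from 60.7 ± 5.96 to 25.9 ± 13.4 (SD, n = 4; limma, log2 -1.37, adjusted p = 0.0174). Dynein and dynactin had 5 higher and 3 lower and 4 higher and 4 lower, with its light chain DYNLL1 falling in both (limma, log2 -0.52, adjusted p = 2.42e-04 in 2D, limma, log2 -0.71, adjusted p = 5.82e-06 in 3D). In 2D and 3D in turn, plus-end proteins had 2 higher and 4 lower and 3 higher and 2 lower, other structural proteins 1 higher and 6 lower and 3 higher and 4 lower, severing proteins 0 higher and 3 lower and 1 higher and 4 lower, growth cone genes 2 higher and 3 lower and 1 higher and 5 lower, other tubulins 1 higher and 1 lower and 1 higher and 1 lower, and kinases 1 higher and 5 lower and 1 higher and 4 lower. Beside these counts, 17.7% of all genes rose and 16.9% fell in 2D, and 17.0% rose and 17.6% fell in 3D.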

How the data were processed

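Bulk RNA was sequenced from 16 SH-SY5Y libraries, 4 in each of 4 groups set by the labels. The deposited values are gene-level signal: the build GRCh38.p13 and the tools STAR, featureCounts, DESeq2, FastQC and CASAVA 1.8.2 are named per the submitters' processing notes, and the values are counts that the authors divided by size factors, read from their steps, since 100% of them became whole reads within 0.01 once rescaled. Genes with at least 10 in 4 or more libraries, 16984 in all, were tested on log2(value + 1) by the trend method of limma 3.58.1 (R 4.3.3), fitting all 16 libraries together, with Benjamini-Hochberg adjustment over these genes. Adjusted p under 0.05 made a call. On the log2(value + 1) scale the change of low genes comes out too small. Means, SDs and ratios are of deposited values. Recovered reads were tested with edgeR 4.0.16 and DESeq2 1.42.0 as alternatives. The limma and edgeR fits were tried on simulated data, and the DESeq2 fit and the other steps were not. Levels per kb used GENCODE 29 exon unions. The members, lists and tests were chosen with earlier results of these data known. Library values are given for called members with the largest changes of each role and for TUBB3, MAP2, MAPT, DCX and STMN2; of each other list at most a pair is named. Alternatives were other scalings, filters, pseudocounts, variance models, a replicate block and leaving out libraries. For single libraries depth limits low genes such as MAPT and TUBA1C, where counting error is large. No pair of libraries agreed within sampling noise.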

Additional observations from a re-analysis of the deposited data

Results flagged for a closer look

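In 13 of 156 groups of 4 libraries tested, 1 library stood far from the other 3 by Dixon's test on the gap relative to the group's range. Chance gives about 1 in 20 such groups. MPP-treated 2D replicate 4 accounted for 5 of the 13: it was high at 6232 normalised reads for MAP1A, 12780 for MAP2, 15230 for DCX, 7659 for TTL and 10410 for KIF5C. In the same group replicate 2 was high for MAPT at 10.78, with the other 3 at 0, and low for TTLL7 at 672.9, and replicate 3 was high for DPYSL4 at 4076. In untreated 2D, replicate 1 was high for TUBB3 at 26180 and low for TTLL7 at 761.7, and replicate 4 was high for KIF1A at 40020. In 3D, untreated replicate 4 was high for TUBB4B at 8764 and MPP-treated replicate 2 was low for MAPRE2 at 4120.

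The MPP effect differed between the cultures for 12 members by the test of the difference in limma. The effect in 3D minus that in 2D was log2 -0.43 for TUBA1A, -0.71 for TUBB2A, -0.62 for TUBB2B, -0.54 for TUBB3, -0.68 for TUBB6 and -0.98 for MAP1B. It was log2 0.60 for TUBG1, 0.45 for DCX, 0.75 for DCLK1, 0.48 for DCLK2, 0.50 for STMN1 and 0.29 for DPYSL5.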

How the results depend on the processing

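Of the members called, 22 of 29 in untreated 3D against 2D, 23 of 28 with MPP, 17 of 21 for MPP in 2D, 15 of 20 for MPP in 3D and 8 of 12 for the difference of the MPP effects kept their call and direction under every alternative run, and no call changed direction. A 2-fold minimum was not counted among these alternatives. Set beside the adjusted p, it left 0 higher and 4 lower in untreated 3D against 2D, 0 and 3 with MPP, 0 and 0 for MPP in 2D, 0 and 1 for MPP in 3D, and 0 and 0 for the difference. Without that minimum limma called 6 and 6 for the difference, and the replicate block 4 and 7. Equal nuclear totals left 2 higher in untreated 3D against 2D, where 40.34% of all genes called were then higher. With equal library totals the members lower with MPP were 5 in 2D and 4 in 3D, where 70.25% and 65.97% of all genes called were higher. With equal nuclear totals they were 9 in 2D, as with the deposited scaling, and 6 in 3D. Mitochondrially encoded genes held 7.72% to 11.6% of reads in untreated 2D and 3.30% to 6.84% in untreated 3D. With MPP they held 0.791% to 0.949% in 2D and 1.04% to 1.52% in 3D. A fit of only the groups compared left 5 members lower with MPP in 3D. The cause of these shifts was not tested.

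Leaving out 1 library at a time gave 3 to 4 higher and 22 to 25 lower in untreated 3D against 2D, 2 to 3 and 22 to 26 with MPP, 12 and 6 to 9 for MPP in 2D, 12 to 14 and 6 to 9 for MPP in 3D, and 4 to 6 and 5 to 7 for the difference. Without untreated 3D replicates 1 and 3 together, 11 were higher with MPP in 3D. Libraries with the same replicate number did not deviate together (correlations of -0.1145 to 0.0896), so the numbers were not taken as pairs. With the replicate block limma called 4 higher and 24 lower in untreated 3D against 2D, 2 and 25 with MPP, 12 and 7 for MPP in 2D, and 12 and 8 for MPP in 3D. Depth limits MAPT, at 66 reads in all, and TUBA1C, at 40 to 79 reads a library, and calls rest on 4 libraries a group of 1 cell line.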
